A study of Mus musculus with 8 samples.

Results

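Strong constant regions away from gene ends are stretches of open chromatin that ranked among the most significant ATAC-seq peaks of every library and lay apart from the limits of protein-coding genes. Peaks from the 8 deposited lists that shared 1 bp or more were joined into 175276 union regions. The regions were chosen by their −log10 p and position: one was taken when it held a peak among the 10000 of highest −log10 p in each of the 8 libraries, and when its midpoint lay more than 1 kb and at most 100 kb from the nearest end of a protein-coding gene. The rule took 1903 regions, 1.41% of the 135005 union regions at that distance. In all, 5866 regions (3.35% of the union) were strong in every library, and the others were 3724 regions within 1 kb of a gene end and 239 regions beyond 100 kb. Because the rule used the −log10 p of every library, the ranks and folds given here describe the regions and were not tested.

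The cells were naive CD4 T cells sorted from mouse spleen and activated through CD3 and CD28 with 20 ng/mL TGF-β, conditions under which such cells can become induced regulatory T cells. One genotype was control, with WT as a further label, and the other, abbreviated cDKO, lacked both Tet1 and Tet3 through a conditional double knockout. Each genotype was cultured with TGF-β alone or with TGF-β and 100 U of IL-2, and 90000 cells per sample were collected at 48 h. The 4 groups held 2 libraries each. All groups shared the antibodies and TGF-β, so no library shows cells without them. The design text calls the replicates biological. For the Cre driver, the age of the mice and the animals behind each library, nothing is given in the sources used here. The p-values therefore reflect the spread between the deposited libraries, which may be technical.

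The lists held 65811 peaks (control with IL-2, replicate 2) to 145979 peaks (control without IL-2, replicate 1), and read depth is not stated in them. Replicate 2 of control with IL-2 stood apart. Of the 640 regions at the same distance that missed the rule by 1 library, 260 missed it in that library and 37 to 88 in each of the others. Without it the rule took 2163 regions. Of 15 T cell identity genes, 7 to 11 had a peak among the 10000 strongest in or within 1 kb of the gene, against 1 to 2 of 10 B cell genes, 1 to 3 of 10 myeloid and dendritic genes and 0 to 1 of 8 erythroid genes. No region of the set was assigned to Tet1, Tet3, Foxp3, Il2ra or Il2. At Tet3 a region was strong in 6 libraries, at Il2 in 5 and at Il2ra in 2, while no region 1 to 100 kb from a gene end was strong in any library at Tet1 or Foxp3.

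ATAC-seq marks DNA that a transposase can reach, which includes promoters, enhancers, insulators and sites bound by CTCF. Accessibility at promoters of widely used genes tends to be shared by many cell types, whereas distant enhancers are often specific to a cell type or state. Many genes have more than one transcription start, and an internal or alternative start lies away from the limits of the gene body. Starts of widely used genes often sit in CpG islands, stretches in which the CG dinucleotide is kept at near the frequency its bases predict. TET enzymes oxidise methylated cytosine, chiefly at CG.

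The sequences of 6 annotated starts inside these regions show how much CG such starts held. Each is the RefSeq window (GRCm38.p6) from 250 bases before to 50 bases after a start, written 5′ to 3′ on the strand of the gene, with every CG in capitals. Trim45, which encodes a member of the tripartite motif family, was the start whose region ranked highest of these and lay at chr3:100922243-100922542 (plus strand). Stag1, which encodes a cohesin subunit, had its window at chr9:100643198-100643497 (plus strand). Nr4a1, an orphan nuclear receptor gene induced by antigen receptor signals, had its window at chr15:101266596-101266895 (plus strand). Prdm1, which encodes the repressor Blimp-1, had its window at chr10:44458699-44458998 (minus strand). Lck, which encodes the kinase bound to the CD4 coreceptor, had its window at chr4:129558323-129558622 (minus strand) and is shown as a start poor in CG. Mir22hg, the non-coding host gene of Mir22, had its window at chr11:75461289-75461588 (plus strand).
Trim45: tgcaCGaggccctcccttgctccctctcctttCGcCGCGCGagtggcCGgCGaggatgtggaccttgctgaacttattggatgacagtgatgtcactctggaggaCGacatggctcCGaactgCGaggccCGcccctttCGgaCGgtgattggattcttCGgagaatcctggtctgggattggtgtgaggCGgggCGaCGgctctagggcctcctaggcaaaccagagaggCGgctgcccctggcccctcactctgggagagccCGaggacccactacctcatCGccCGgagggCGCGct
Stag1: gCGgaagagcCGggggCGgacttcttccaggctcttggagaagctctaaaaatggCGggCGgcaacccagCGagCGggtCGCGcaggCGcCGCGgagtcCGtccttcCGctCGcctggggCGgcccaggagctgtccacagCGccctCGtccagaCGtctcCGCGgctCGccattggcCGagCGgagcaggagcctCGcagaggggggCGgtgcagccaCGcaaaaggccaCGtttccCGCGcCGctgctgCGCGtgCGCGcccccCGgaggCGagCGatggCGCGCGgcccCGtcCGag
Nr4a1: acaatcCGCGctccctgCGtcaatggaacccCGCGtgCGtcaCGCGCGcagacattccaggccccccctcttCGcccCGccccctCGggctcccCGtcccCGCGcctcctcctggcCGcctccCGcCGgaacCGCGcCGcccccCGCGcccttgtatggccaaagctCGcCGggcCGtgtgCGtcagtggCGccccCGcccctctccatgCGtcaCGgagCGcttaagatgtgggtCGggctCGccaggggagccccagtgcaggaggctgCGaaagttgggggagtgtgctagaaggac
Prdm1: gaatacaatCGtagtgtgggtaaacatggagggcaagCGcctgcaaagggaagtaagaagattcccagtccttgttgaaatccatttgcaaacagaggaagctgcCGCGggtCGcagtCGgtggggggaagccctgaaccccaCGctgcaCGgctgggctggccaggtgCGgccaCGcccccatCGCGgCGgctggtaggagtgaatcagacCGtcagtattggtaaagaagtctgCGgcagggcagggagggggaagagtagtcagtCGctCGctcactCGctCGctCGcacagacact
Lck: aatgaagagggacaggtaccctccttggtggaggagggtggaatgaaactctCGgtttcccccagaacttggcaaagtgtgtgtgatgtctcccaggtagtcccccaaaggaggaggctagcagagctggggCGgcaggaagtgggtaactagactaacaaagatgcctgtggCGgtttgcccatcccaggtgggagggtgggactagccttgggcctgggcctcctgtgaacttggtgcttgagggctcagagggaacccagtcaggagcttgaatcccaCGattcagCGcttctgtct
Mir22hg: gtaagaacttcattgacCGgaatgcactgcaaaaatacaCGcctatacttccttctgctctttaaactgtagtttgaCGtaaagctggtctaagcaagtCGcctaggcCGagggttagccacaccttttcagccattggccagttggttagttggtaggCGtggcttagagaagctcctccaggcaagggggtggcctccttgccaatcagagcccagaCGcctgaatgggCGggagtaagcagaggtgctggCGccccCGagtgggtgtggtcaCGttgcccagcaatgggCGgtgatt

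The CG dinucleotides numbered 23 in the Trim45 window, 43 in that of Stag1, 35 in that of Nr4a1 and 20 in that of Prdm1, but 12 in that of Mir22hg and 5 in that of Lck. The ratio of observed CG to the number predicted from the C and G content was 0.741 for Trim45, 1.06 for Stag1, 0.913 for Nr4a1, 0.766 for Prdm1, 0.541 for Mir22hg and 0.211 for Lck. Thus 4 of these windows lay above and 2 below a ratio of 0.6, a level often used to define CpG islands. The Stag1 start lay 45.7 kb, the Prdm1 start 21.6 kb, the Lck start 10 kb and the Nr4a1 start 7.95 kb from the nearest gene end. The start of Trim45 lay only 1.29 kb from an end.

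Most of the 1903 regions held no annotated start. A start of a protein-coding gene or long non-coding RNA (lncRNA), itself more than 1 kb from a protein-coding gene end, lay in 442 regions (23.2%), and 1461 (76.8%) held none, of which 15 overlapped only a start within 1 kb of an end. Protein-coding starts lay in 347 regions (18.2%), lncRNA starts in 128 (6.73%), and both kinds in 33. Of the strong constant regions at gene ends, 83.4% held a start. One start counted here, annotated to Grpel1, had no entry in the gene table. When peaks were ranked by fold in place of −log10 p, the rule took 1750 regions, of which 818 were shared with the 1903, and 10.7% held a start.

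A wide region has more room for a start, so starts were also counted in a fixed window of 150 bp on either side of the median summit. By that measure 17.7% of the 1903 regions held a start (95% Wilson interval 16.1 to 19.5%, counting error only). The share was 8.28% (6.39 to 10.7%) for regions strong in 7 of 8 libraries, 4.69% (3.8 to 5.78%) for those strong in 1, and 1.03% (0.976 to 1.09%) for those strong in none. Between 2 and 6 libraries it ranged from 4.7% to 8.62% with overlapping intervals. Regions strong in all libraries therefore stood above the other classes, while the classes from 5 to 7 libraries could not be told apart. Regions share libraries and are not replicates, so the intervals give counting precision and no test of conditions.

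**Figure D1:**
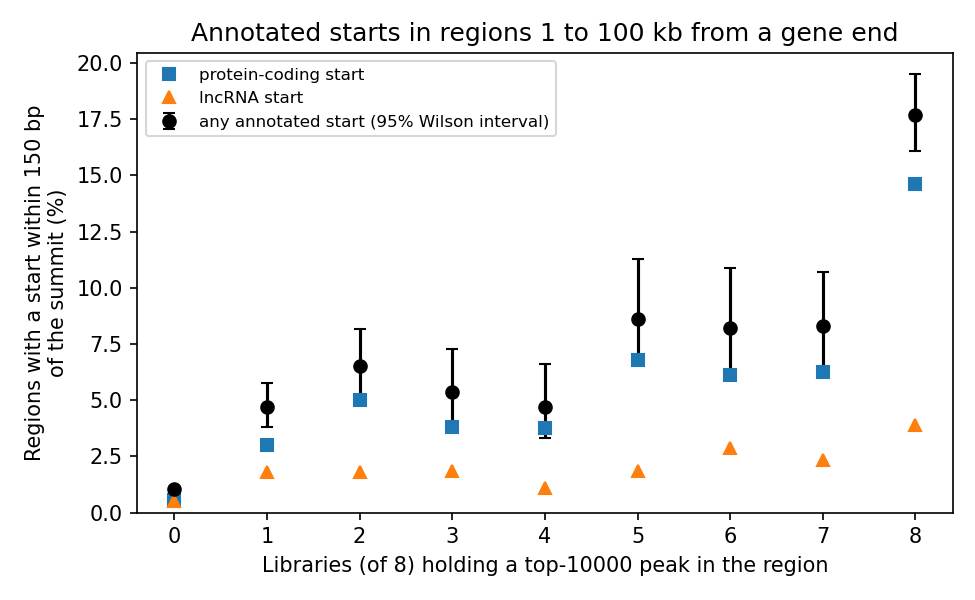
Share of regions 1 to 100 kb from a gene end with an annotated start within 150 bp of the summit (vertical axis, %), by the number of libraries in which the region held a top-10000 peak (horizontal axis). Circles are any start with 95% Wilson intervals, squares protein-coding and triangles lncRNA starts; the share is 17.7% at 8 libraries and at most 8.62% at fewer.

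Regions holding a start lay nearer to gene ends. Their median distance from an end was 5.91 kb, against 16.4 kb for regions with none, and 82.8% against 53.9% lay inside a protein-coding gene body. Of the 190 regions 1 to 2 kb from an end, 53.2% held a start. The share was 40.2% at 2 to 5 kb, 25.1% at 5 to 10 kb, 17.2% at 10 to 20 kb, 12.6% at 20 to 50 kb and 10.8% at 50 to 100 kb. The share thus fell with each distance class, and most starts lay in the nearer classes. Over all 1903 regions the median distance was 13.5 kb (quartiles 5.56 and 31.6 kb), against 16.6 kb for all union regions at 1 to 100 kb. Inside gene bodies lay 1153 regions (60.6%), close to the 57.6% of all union regions at that distance and below the 79.2% of strong constant regions at gene ends. Exons, introns and untranslated parts were not analysed here.

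The internal protein-coding starts belonged to 347 genes. Of these, 102 also had an annotated start within 1 kb of a gene end. The others, most of the 347, had no such start among the windows used (32851 windows of 27025 genes). For them the internal start was thus not an alternative to a listed start near an end. In the 102 genes, the start near the end lay in a region strong in all 8 libraries for 26 genes and in 1 to 7 libraries for 11. For 27 genes it lay in a listed region that was strong in no library, and for 38 it lay in no listed region. So for 65 of the 102 genes the start near the end held a strong peak in no library. The internal start held one in every library by the rule, so only the start near the end could vary. No like share for other genes is given here. Which transcript the cells used was not measured.

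Summits sat just upstream of these starts. In the 347 regions the median summit lay 40.5 bp upstream of the nearest internal protein-coding start, at −40.5 (quartiles −88.25 and 4 bp), and 256 (73.8%) lay upstream. At 3068 strong constant regions at gene ends the median was −49.5 bp (quartiles −98.5 and −11), with 79.7% upstream. Within 150 bp of the start lay 80.1% of summits in the first set and 83.1% in the second. The medians in single libraries ran from −43 to −37 bp away from gene ends and from −51 to −48 bp at gene ends, so each library placed the summit on the same side.

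**Figure D2:**
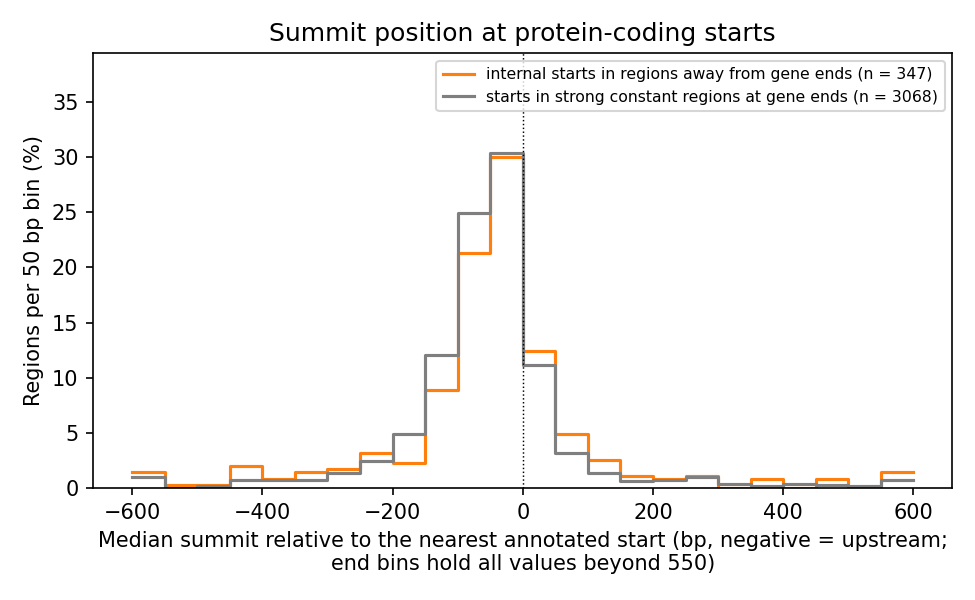
Distance of the median summit from the nearest annotated protein-coding start (horizontal axis, bp, negative is upstream), as the share of regions per 50 bp bin (vertical axis, %). The curve of internal starts in regions away from gene ends (n = 347) and that of starts at gene ends (n = 3068) both peak just upstream of the start.

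Starts inside the regions were rich in CG. Of 394 protein-coding start windows, 318 (80.7%) had a CpG ratio above 0.6, with a median of 0.802 (quartiles 0.644 and 0.901) and a median GC content of 63.3%. At strong constant gene ends 87.1% of 3957 windows passed 0.6, with a median of 0.826. Of the internal protein-coding starts in union regions at the same distance that were outside the set, 57.3% passed (1392 windows, median 0.666). Of those in no listed region, 8.95% passed (1977 windows, median 0.245). Over all protein-coding windows 47.6% passed (21262 windows, median 0.567). Over all 32851 annotated windows, which include lncRNA starts, 35.8% did. The lncRNA starts of the regions were mixed, with 58.9% of 146 windows above 0.6 and a median of 0.67, against 25.5% and 0.349 for lncRNA starts in the other union regions at that distance. CG content was thus high at internal starts in these regions and low at internal starts that held no peak.

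**Figure D3:**
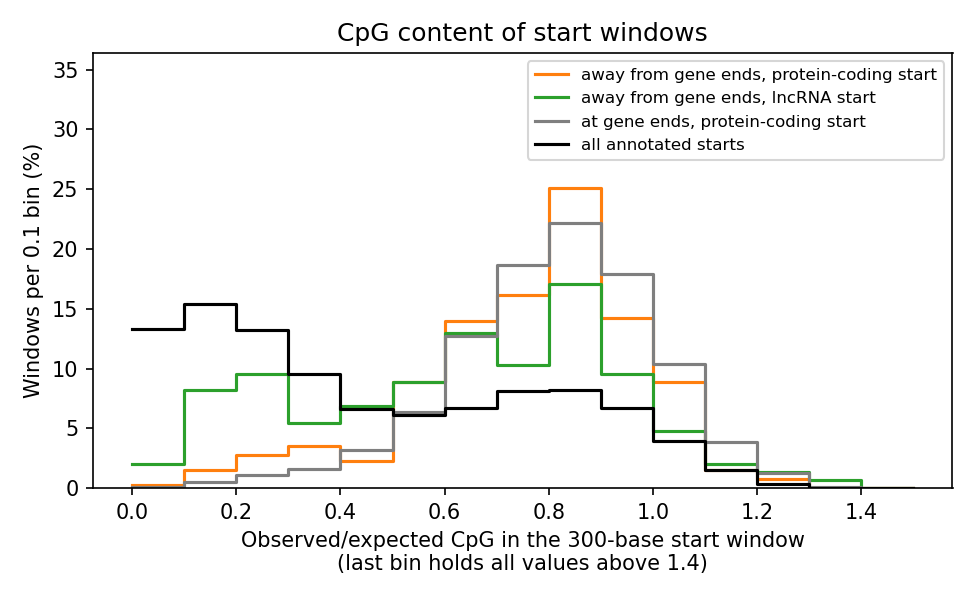
Observed over expected CpG in 300-base start windows (horizontal axis), as the share of windows per bin of 0.1 (vertical axis, %). Windows of protein-coding starts away from gene ends (median 0.802) and at gene ends (0.826) gather near 0.8, lncRNA starts away from gene ends spread over both ranges (0.67), and all annotated starts gather at low ratios (0.384). All annotated starts include lncRNA starts, and the median of all protein-coding starts, not drawn, was 0.567.

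Short letter patterns were searched on both strands of the same windows. GGGCGG, the core letters bound by Sp and Klf factors, occurred in 70.1% of protein-coding windows of the regions, 74.9% at strong gene ends and 46.2% of all protein-coding windows. CCAAT occurred in 46.4%, 51.3% and 38.2% respectively, and CCGGAAGT, an ETS pattern, in 10.9%, 11.5% and 5.15%. TATAAA, the TATA box letters, went the other way at 4.57%, 4.4% and 12.6%. For these 4 patterns the internal starts were close to the starts at strong gene ends. The AP-1 pattern TGANTCA occurred in 7.11% of the internal windows, 3.41% at gene ends and 6.99% of all protein-coding windows. The RUNX pattern TGTGGTT occurred in 3.3%, 3.41% and 4.71%. Among lncRNA windows it occurred in 11.6% of those of the regions (17 of 146). It occurred in 8.48% of those in the other union regions at 1 to 100 kb and in 6.29% of all lncRNA windows. The second ETS pattern AGGAAGTG occurred in 3.55% of the internal windows, 4.8% at gene ends and 4.07% of all annotated windows. The TCF pattern CTTTGAA occurred in 1.27% of the internal windows, 2.68% at gene ends and 4.54% of all protein-coding windows. A short CTCF core pattern occurred in 1.78%, 0.733% and 0.611% of the same 3 sets. A longer CTCF pattern, every match of which is also a match of the shorter, occurred in no window of either strong set. Of the windows shown, those of Trim45, Stag1 and Mir22hg held GGGCGG and CCAAT, that of Nr4a1 GGGCGG, that of Prdm1 CCAAT and TGANTCA, and that of Lck GGGCGG and AGGAAGTG. A match describes the letters and is not a measured site.

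Peaks in these regions were narrower than those at gene ends in every library. Width was not used by the rule. The median width of the strongest peak per region was 722.2 ± 38.4 bp (SD, n = 8 libraries) against 958.6 ± 36.5 bp for strong constant regions at gene ends. The difference of −236.3 bp lay between −248 and −227 bp in single libraries and was negative in 8 of 8 (exact 2-sided sign-flip permutation test, p = 0.00781, the smallest 8 libraries allow; Benjamini-Hochberg adjusted p = 0.0469 over 6 tests). Peaks in regions holding a start measured 888.5 to 994.5 bp across libraries, and peaks in regions with none 595 to 708 bp. At gene ends the medians were 901 to 998 bp, so the regions with a start overlapped the range of the gene ends and those without a start lay wholly below it. This split counted a start anywhere in the region, and a wide region has more room for one. The split by start therefore favours width by construction. With any 1 library left out the difference between all regions of the set and gene ends stayed between −261 and −235.4 bp. The adjusted p of the same sign-flip test rose to between 0.0857 and 0.0938, since 7 libraries give fewer sign patterns.

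**Figure D4:**
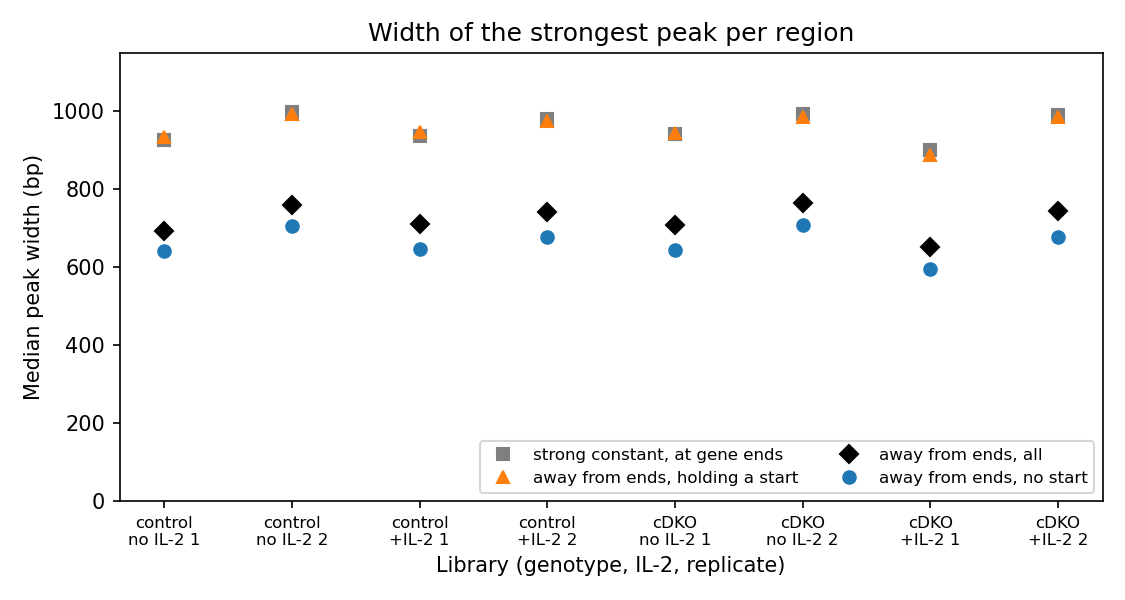
Median width of the strongest peak per region (vertical axis, bp) in each of the 8 libraries (horizontal axis). Diamonds are all 1903 regions, triangles those holding a start, circles those with none and squares strong constant regions at gene ends. In every library the circles are lowest and the triangles lie beside the squares. A start anywhere in the region counted, which favours wide regions.

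The summit stayed in nearly the same place from library to library. Over the 8 libraries the summits of a region spanned a median of 65 bp, against 70 bp at gene ends. They fell within 50 bp in 581 regions (30.5%, gene ends 27.4%) and within 100 bp in 1545 (81.2%, gene ends 75.1%). The median offset of a library's summit from the median of all 8 was 11 ± 4.28 bp (SD, n = 8) against 11.8 ± 4.65 bp at gene ends, lower in 7 libraries and equal in 1. That difference of −0.812 bp had an exact sign-flip permutation p of 0.0156 (adjusted p = 0.0469). The call ended when 5000 top peaks were used (−0.5 bp, adjusted p = 0.656), when gene ends were widened to 2.5 kb (−0.688 bp, adjusted p = 0.125), when the peak had to cover 50% of the region (−0.594 bp, adjusted p = 0.0938), and with any 1 library left out (adjusted p 0.125 to 1, all by the same exact permutation test). Replicate 2 of control with IL-2, the shortest list, had an offset of 20 bp, against 8 to 13.5 bp in the other libraries.

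Both measures were also compared between genotypes and by IL-2, and none of the 4 differences passed the test. With 4 libraries a side, 1 fully separated measure alone would have had an adjusted p of 0.0571 by the exact permutation test, so the design could not call a single such difference. Median width was 718.2 ± 49.5 bp in cDKO and 726.2 ± 30.9 bp in control (SD, n = 4 libraries each, exact permutation p = 0.886, adjusted p = 0.914). It was 712.8 ± 42.9 bp with IL-2 and 731.8 ± 36.8 bp without (exact permutation p = 0.514, adjusted p = 0.771). The summit offset was 8.25 ± 0.289 bp in cDKO and 13.8 ± 4.73 bp in control (exact permutation p = 0.0857, adjusted p = 0.171). With and without IL-2 it was 11.2 ± 5.84 and 10.8 ± 2.9 bp (exact permutation p = 0.914, adjusted p = 0.914). Fewer cells with an open region and less opening per cell cannot be told apart in bulk libraries.

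Strength ran over the whole range that the rule allows. The lowest −log10 p among the 10000 top peaks was 34.9 to 51.7 across libraries, and the median fold over background in the 1903 regions was 12.8 to 15. Sorted by the worst of their 8 ranks, 17 regions stayed within rank 100 in every library, 55 more within 1000, and 685 had their worst rank between 7501 and 10000. The 17 strongest were short. Their median width was 517 bp (269 to 633), 4 (23.5%) lay inside a gene body, and none held an annotated start. In the classes from 101 to 10000 the median width was 813 to 956 bp and 19.7% to 27.6% held a start.

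The strongest region lay inside Chl1, which encodes a neural cell adhesion molecule, at chr6:103649038-103649362. It ranked 1 and 2 in control without IL-2, 1 and 2 in control with IL-2, 2 and 2 in cDKO without IL-2, and 1 and 1 in cDKO with IL-2, at 37.9- to 43.4-fold over background. Its 325 bp were thus the first or second peak of every list. A region 29.5 kb from Rpusd4 never ranked below 4, and one inside Zc3h7a never below 10. Regions inside Filip1l and Cdk8 and others 7.55 to 90.8 kb outside Rimbp3, B230307C23Rik, Axin2, Tmem196 and Cr2 made up the first 10, with worst ranks of 14 to 26. Cr2, a complement receptor gene of B cells, is on the B cell list, and its region, 64.9 kb from the gene, is the only one of that list. No list of artefact regions or of repeats was used here.

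The regions were spread over many genes. They were assigned to 1685 of 21896 protein-coding genes (7.7%), of which 1491 had 1, 174 had 2, 16 had 3 and 4 had 4 regions. The 4 genes were Tex14, a gene of the bridges between germ cells, Ldlrad4, an inhibitor of TGF-β signalling, Rps6ka1, which encodes a ribosomal S6 kinase, and Chd2, which encodes a chromatin remodeller. All 4 regions at Tex14 lay inside the gene between 87442719 and 87472188 on chromosome 11, and their ranks ran from 232 to 6723. At Chd2 one of the 4 held the start of the lncRNA gene Chaserr and ranked 798 to 4934. Only 34 regions lay within 10 kb of the one before. In 1498 regions (78.7%) each library listed exactly 1 peak.

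Genes of T cell biology carried these regions more often than genes at large, and also carried more open regions of any strength. Over 9 lists (T cell identity, T cell receptor signalling, Treg, IL-2 and STAT5, TGF-β and SMAD, naive and memory, helper fates, the AP-1, NFAT, NF-kB and IRF factors, and the Runx, ETS and Ikaros factors), 55 of 150 genes (36.7%) had at least 1 region, beside 7.7% of all genes. Their median number of union regions 1 to 100 kb from an end was 19.5 per gene, against 3 over all genes. Per union region the gap was smaller, since 71 of 3657 (1.94%) belonged to the set, beside 1.41% over all genes. Genes of B cells, myeloid cells, red cells, neurons and liver had 4 regions at 4 of 38 genes (10.5%), 1.81% of 221 union regions. So the share per union region was near the same level in both kinds of list.

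Among T cell identity genes, 3 of 15 had a region, at Lck, Cd5 and Ptprc, which encodes CD45. These were 0.896% of the union regions of that list, below the 1.41% over all genes. The Lck region at chr4:129558153-129558958, which holds the start shown above, was strong but near the limit. It ranked 8631 and 3512 in control without IL-2, 9711 and 5692 in control with IL-2, 5465 and 6344 in cDKO without IL-2, and 7166 and 4940 in cDKO with IL-2. Replicates differed as much as groups, and all 4 groups overlapped. Of 24 genes of T cell receptor signalling and costimulation, 9 had 10 regions, 1.63% of their union regions. The strongest of the regions named there, 9.34 kb from the early activation gene Cd69, ranked 592 to 1511 across all 8 libraries. The region at Icos, a costimulatory receptor gene, was 50.2 kb away and ranked 2652 to 4914.

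Of 15 Treg genes, 6 had 1 region each (1.99% of union regions), at Ikzf2, Ikzf4, Nrp1, Entpd1, Nt5e and Capg. Ikzf2 encodes Helios, an Ikaros family factor of regulatory T cells. Its region inside the gene at chr1:69544066-69544681 ranked 1034 and 779 in control without IL-2, 821 and 1544 in control with IL-2, 437 and 981 in cDKO without IL-2, and 1728 and 576 in cDKO with IL-2. The groups overlapped. Ikzf4, which encodes Eos, had a region that ranked 1741 to 3038. Entpd1 and Nt5e encode the ectoenzymes CD39 and CD73. The Entpd1 region ranked 768 in one control library without IL-2 and 9539 in one with IL-2, a far wider range than at Ikzf4.

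Of 15 genes of the IL-2 and STAT5 pathway, 4 had 6 regions (2.53%). Il2rb, the β chain of the IL-2 receptor, had 2. The one inside the gene at chr15:78494420-78495718 ranked 3064 and 3653 in control without IL-2, 2515 and 1074 in control with IL-2, 1006 and 1197 in cDKO without IL-2, and 386 and 3037 in cDKO with IL-2. Control without IL-2 held the 2 weakest places, and 1 library of cDKO with IL-2 was next to them. Jak1, the kinase bound to that chain, had 2 regions. One ranked 1445 to 1499 in the 4 cDKO libraries and 1893 to 4449 in the 4 control libraries. The other overlapped, at 4242 to 6627 in cDKO and 3203 to 6749 in control. By ranks within the strong set, cDKO was ahead in all libraries at 3.42% of the 1903 regions and 4.04% of all 5866. Lif and Pim1 had 1 region each.

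Of 17 genes of the TGF-β and SMAD pathway, 6 had 10 regions (2.19%). Tgfbr2 encodes the type II receptor, and its region 68.5 kb from the gene ranked 1696 to 5216. Smad3 encodes a receptor-activated transcription factor. Its region inside the gene at chr9:63706244-63707026 ranked 992 and 419 in control without IL-2, 622 and 256 in control with IL-2, 493 and 44 in cDKO without IL-2, and 176 and 112 in cDKO with IL-2. Fold over background there was 14.1 to 18.2. The cDKO libraries with IL-2 ranked ahead of all control libraries, whereas one cDKO library without IL-2 lay among them. Inhibitors of the pathway held the rest. Smad7 and Ski had 1 region each and Pmepa1 had 2, one of which ranked 2209 to 4945. Of the 4 at Ldlrad4, the region at chr18:67945319-67946087 varied most. It ranked 144 and 642 in control without IL-2, 100 and 1773 in control with IL-2, 7459 and 7726 in cDKO without IL-2, and 2984 and 808 in cDKO with IL-2. The groups without IL-2 were apart there, and those with IL-2 overlapped.

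Naive and memory genes had the largest share of genes with a region among the T cell lists, 9 of 15, with 14 regions (2.31% of union regions). Tcf7 and Lef1 encode the related factors TCF1 and LEF1. The Tcf7 region at chr11:52299259-52300177 ranked 1509 and 462 in control without IL-2, 1563 and 242 in control with IL-2, 1259 and 764 in cDKO without IL-2, and 473 and 304 in cDKO with IL-2. The Lef1 region inside the gene at chr3:131207792-131209272 ranked 836 to 2713. Both spread as much between replicates as between groups. Ccr7, Foxp1, Foxo1 and Bach2, genes of homing and of quiescence, had 2 regions each. Myb, Itga6 and Id3 had 1 each. At Itga6 the 4 cDKO libraries ranked 3369 to 5882 and the 4 control libraries 6315 to 8250. Ranked among the strong constant regions alone they overlapped, at 3245 to 4819 in cDKO and 4816 to 5573 in control. This region was named after its values were seen.

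Of 16 helper fate genes, 6 had 7 regions (2.41%), with 2 at Prdm1 and 1 each at Bcl6, Maf, Cxcr5, Il17a and Il21. The Prdm1 region that holds the start shown above ranked 3207 and 4081 in control without IL-2, 3343 and 6470 in control with IL-2, 7903 and 5228 in cDKO without IL-2, and 8041 and 5409 in cDKO with IL-2. The ranges overlapped between genotypes. At Bcl6, the master factor of follicular helper cells, ranks ran from 983 to 8399. Of 10 cytotoxic genes only Fasl, the ligand of the death receptor Fas, had regions, and it had 2 (2.7% of union regions). Of 20 genes of the AP-1, NFAT, NF-kB and IRF factors, 7 had 9 regions (2.35%), among them 2 near Fos. One of those, 18.4 kb from the gene, ranked 315 to 3571. Batf, which encodes an AP-1 partner of IRF4, had 1 inside the gene that ranked 4321 to 8305.

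Regions of the other regulators ranged from the top of the lists to near the limit. Of 16 Runx, ETS and Ikaros genes, 7 had 8 regions, and at 1.41% of their union regions the share equalled that of all genes. The Runx2 region at chr17:44536414-44537567 ranked 558 and 250 in control without IL-2, 39 and 61 in control with IL-2, 251 and 186 in cDKO without IL-2, and 349 and 37 in cDKO with IL-2, at 17.1- to 21.6-fold. Runx2 encodes a factor best known from bone, and its region was among the strongest of every list. Of 19 genes of activation, growth and metabolism, 6 had 8 regions (2.57%). Nr4a1 had 2 regions. The one holding the start shown above ranked 2882 to 5995, and the other, outside the gene, 629 to 2492. Of 12 chromatin architecture genes 4 had a region (2.03% of union regions), at Smarca4, Arid1a, Stag1 and Wapl. The Smarca4 region, 6.06 kb outside the gene of the BRG1 remodeller, ranked 55 to 297. The Stag1 region, wide at 1706 bp, ranked 957 to 3814. Of 12 DNA methylation genes 1 had a region, at Dnmt3a, a de novo methyltransferase gene, where ranks ran from 2318 to 7246. It was 0.521% of the union regions of that list, below the 1.41% over all genes.

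**Figure D5:**
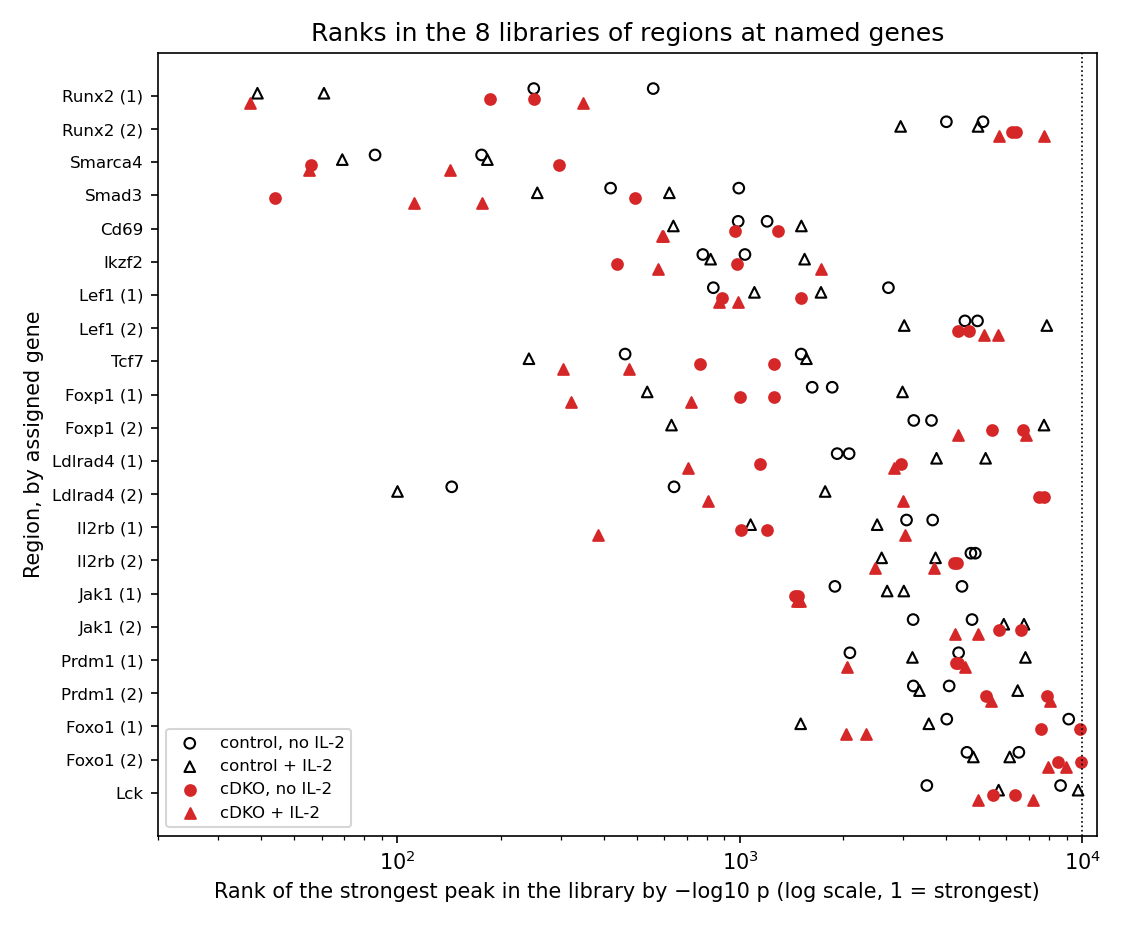
Rank of the strongest peak by −log10 p (horizontal axis, log scale, 1 is the strongest) in each of the 8 libraries for regions named by their assigned gene (vertical axis). Open marks are control, filled marks cDKO, circles without and triangles with IL-2, and the dotted line is the rule's limit of 10000; most regions mix the marks, while at Runx2 (1) all 8 lie at 558 or better.

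To see which regions shifted within this strong set, the 5866 regions were ranked against each other in each library, and regions were counted whose ranks did not overlap between the 4 libraries of each side. Ahead in all control libraries were 90 of the 1903 (4.73%), where 3.82% of all 5866 and 3.28% of those at gene ends were. Ahead in all cDKO libraries were 65 (3.42%), where 4.04% of all 5866 and 4.51% of those at gene ends were. Ahead in all libraries without IL-2 were 39 (2.05%, beside 1.41% and 0.859%), and in all libraries with IL-2 31 (1.63%, beside 1.36% and 1.29%). The shares lay near those of the whole strong set, which includes the 1903, with the widest relative gap for regions ahead without IL-2. At gene ends the order of the genotype shares was the other way round. All 5866 were ranked together, so a gain at gene ends sets other regions back, and these orders are not independent. No difference between shares was tested. When peaks were ranked by fold, 41 regions were ahead in control and 62 in cDKO, which turned the order of the genotype counts round. All 4 counts rose with any 1 library left out, since fewer ranks then had to be apart.

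The largest genotype gaps with control ahead were at Nlrp4f, Nedd4l and Mtmr7. The Nlrp4f region, which holds the start of the lncRNA gene Gm36445 and lies 35.4 kb from the gene at chr13:65240416-65241769, ranked 1257, 393, 639 and 525 within the set in the control libraries. In the cDKO libraries it ranked 3726, 5002, 3295 and 3553. The regions named here were chosen for such gaps, so the weakest control library was ahead of the strongest cDKO library by that choice. Nedd4l encodes a ubiquitin ligase, and the region inside it ranked 2221 to 3375 in control and 5406 to 5803 in cDKO. With cDKO ahead, the largest gaps were at Scarb2, Larp4 and Gtf2ird1. The region inside Gtf2ird1, a transcription factor gene, at chr5:134444365-134445727 ranked 1021, 1903, 2110 and 1912 in the cDKO libraries and 4574, 5715, 5482 and 4015 in the control libraries. The region at Larp4, an RNA-binding protein gene, holds a protein-coding start and ranked 1580 to 2343 in cDKO and 4274 to 4948 in control.

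IL-2 gaps were largest at Acer3, Arfgef3 and Ctss with the libraries without IL-2 ahead, and at Bsn, Slc39a10 and Dpt with IL-2 ahead. Acer3 encodes an alkaline ceramidase. The region inside it at chr7:98252469-98253003 ranked 2053 and 1646 in control without IL-2, 805 and 524 in cDKO without IL-2, 5615 and 5678 in control with IL-2, and 3911 and 4567 in cDKO with IL-2. Because the region was chosen for ranks that did not overlap over all 8 libraries, both genotypes were ahead without IL-2 by that choice. Slc39a10 encodes a zinc importer. The region inside it at chr1:46863739-46864713 ranked 2260 and 2421 in control without IL-2, 4926 and 4709 in cDKO without IL-2, 514 and 590 in control with IL-2, and 692 and 877 in cDKO with IL-2. There the same choice put both genotypes ahead with IL-2.

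Some regions of high rank held the start of a non-coding gene, and those named here were chosen for their rank. None of the 17 regions within rank 100 in every library held a start. The region 61.6 kb from Cd83, which encodes a surface protein of activated cells, holds the start of Gm33195 and ranked 55 to 391. One inside Anxa6, an annexin gene, holds the start of Gm19911 and ranked 70 to 812. One 24.7 kb from Usp46 holds the start of Dancr, a lncRNA gene, and ranked 205 to 1097. Of 1005 RefSeq microRNA hairpins, 3 (Mir5620, Mir713 and Mir7655) lay inside one of the 1903 regions, and 10 lay within 2000 bp, among them Mir210, known from hypoxia, at 74 bp and Mir22 at 1861 bp.

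The widest regions were at Tob1 (2555 bp), Zfp825 (2479 bp) and Cds2 (2263 bp). Tob1 encodes an antiproliferative protein, and its region holds a start of the gene. At the limits of the rule, the weakest regions taken had worst ranks of 9994 (Btd), 9995 (Efr3b) and 10000 (Cep295nl), and the first left out had 10001 (Adcy7), 10004 (Lmnb1) and 10007 (Tmem29). Regions at 991 bp (Sft2d3), 993 bp (Ccin) and 998 bp (Polm) were left out as too near a gene end, and the nearest taken were at Rangap1 (1.0 kb), Atxn3 (1.01 kb) and Pwwp2a (1.02 kb). The farthest taken was at 99.7 kb (Ablim1), and the first beyond was at 100619 bp (Dleu7). The limits therefore fell where neighbouring values were continuous.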

How the data were processed

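ATAC-seq libraries (8 in all) were grouped by genotype and IL-2 from the sample labels. The submitters' processing notes list, without saying what each did, MACS2 2.2.7.1, Bowtie2 2.4.1, Trimmomatic 0.39, SAMtools 1.3.1, Picard, HOMER 4.11.1, ChIPseeker 1.18.0 and DiffBind 2.10.0, and the build GRCm38 (mm10). Settings of read shifting, duplicate removal and peak calling affect width and summit and were not given in the sources used here. The authors deposited 1 peak list per library. Each peak carries the authors' own fold over background (a ratio), −log10 p-value, −log10 q-value and summit position. Lists do not state read depth. Fold and −log10 p were used only to rank peaks within a list, so a list with more reads is compared by rank, not by height.

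Peaks were merged at 1 bp overlap, and a library's value in a region is that of its peak of highest −log10 p. A region took the name of the protein-coding gene around its midpoint, or else of the nearest one. Gene bodies came from the RefSeq table of GRCm38.p6, which gives no strand or exons, and starts from the RefSeq start windows (32851 windows of 27025 genes), with no signal from the files. No genome was used here, so the motif search planned around summits was replaced by a search of the start windows, where the GC-box, CAAT-box and TATA-box patterns were added after seeing the data. All 241 genes of 17 lists matched the table. Named regions were Tet1, Tet3, Foxp3, Il2ra and Il2, the 10 of smallest worst rank, the 10 genes with most regions, up to 4 genes per list, the 3 of largest gap per direction, the 3 widest, up to 10 over non-coding starts and the regions beside each threshold. Further members of the fixed lists, and the start windows printed, were chosen after their values were seen. The regions, lists and rules were chosen with earlier results of these data known.

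The 6 library-level tests used exact 2-sided permutation, with 256 sign patterns for paired medians (smallest p = 0.00781) and 70 relabellings for 4 against 4 libraries (smallest p = 0.0286), adjusted by the Benjamini-Hochberg method. Tests were tried on simulated data first. Alternatives were 5000 or 20000 top peaks, ranking by fold, a −log10 q of at least 5, coverage of 50% of the region, gene ends of 2.5 kb, gene-end regions matched on rank range, distance 0 inside gene bodies, a replicate block and leaving out each library. Analyses used Python 3.11.15, numpy 2.4.6, pandas 2.3.3, scipy 1.17.1 and matplotlib 3.10.9.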

Additional observations from a re-analysis of the deposited data

Results flagged for a closer look

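At 6 of the 165 named regions both control libraries ranked ahead of both cDKO libraries in one IL-2 arm and behind them in the other, by ranks among the 5866 strong constant regions. Over all 1903 regions 68 (3.57%) had such an order, and the share over all 5866 strong constant regions is not given here. With 2 libraries per group, whether these orders exceed the spread between replicates was not tested, nor was the difference between arms. The 6 regions are therefore a description. The change in the rank difference (cDKO minus control) from the arm without to the arm with IL-2 was −2768.5 at a Bach2 region, −2854 at a Dym region and −2186 at a Jak1 region, and 2291 at a Fasl region, 1471 at an Xylt1 region and 877.5 at a Cct8l1 region. At Bach2, which encodes a repressor of effector genes, mean ranks without IL-2 were 2672.5 in control and 4110 in cDKO, and with IL-2 3386 and 2055. At Fasl they were 5041 and 3568.5 without IL-2, and 4755 and 5573.5 with it. At Jak1 they were 3549.5 and 4951.5 without IL-2, and 4928.5 and 4144.5 with it. At Dym they were 1287.5 and 1775.5 without IL-2, and 4255 and 1889 with it.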

How the results depend on the processing

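The number of regions was 614 with 5000 top peaks and 5593 with 20000, and 1750 with ranking by fold, where 818 were shared with the 1903. The share holding a start was 26.1%, 15.5% and 10.7% under these 3 settings and 18.9% with gene ends of 2.5 kb. The share inside genes was 54.6% with ranking by fold and 57.3% with gene ends of 2.5 kb. Non-overlapping ranks numbered 20 (cDKO ahead), 22 (control), 9 (IL-2) and 9 (no IL-2) with 5000 top peaks, 220, 301, 118 and 171 with 20000, and 62, 41, 23 and 42 with ranking by fold, where the order of the genotype counts turned. The summit offset against gene ends was −0.5 bp (5000 top peaks, adjusted p = 0.656), −0.594 bp (50% coverage, adjusted p = 0.0938) and −0.688 bp (gene ends of 2.5 kb, adjusted p = 0.125), all by exact permutation. The cause was not tested for these, beyond the numbers of peaks and regions that each setting sets by construction. The width difference against gene ends kept its sign under every alternative run. It was −236.4 bp (exact permutation, adjusted p = 0.0469) with gene-end regions limited to the rank range of the 1903 regions. That range spanned nearly all ranks the rule allows, so this setting could change little and did not match the sets on strength.

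Leaving out 1 library gave 1940 to 2163 regions, 21.2% to 23.3% with a start and 59.8% to 60.7% inside genes. Non-overlapping counts were 94 to 134 (cDKO), 113 to 175 (control), 51 to 64 (IL-2) and 63 to 89 (no IL-2). Width against gene ends was −261 to −235.4 bp and offset −0.857 to −0.429 bp. The uncalled differences changed sign in some of these: width −22.9 to 12 bp by genotype and −33.8 to 0.333 bp by IL-2, and offset −2.83 to 1.92 bp by IL-2. The width difference by genotype was 4.25 bp without replicate 2 of control without IL-2 and 12 bp without replicate 1 of cDKO with IL-2, which also gave 0.333 bp by IL-2. The offset by IL-2 was −2.83 bp without replicate 2 of control with IL-2, and −0.583 and −0.833 bp without replicate 1 or 2 of cDKO without IL-2. The offset by genotype ran from −8.08 to −4.17 bp.

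Deviations of same-numbered libraries correlated at 0.382 between control with and control without IL-2, over 5866 regions. For the other pairs of groups the correlation was −0.214 to 0.0359. Replicate numbers thus did not pair the libraries across all groups, but same-numbered control libraries deviated partly together. With the replicate number as a block the values were −8 bp (genotype) and −19 bp (IL-2) for width and −5.5 bp and 0.5 bp for offset, with exact permutation adjusted p of 0.889, 0.417, 0.222 and 0.889, and no call changed. Requiring a −log10 q of at least 5 left all 1903 regions. The lowest −log10 p of the 10000 top peaks was 34.9 to 51.7 across libraries, so this cut could remove few or none of them. Distance 0 inside genes gave 1970. Of the 165 named regions 63 stayed with 5000 top peaks, 59 with ranking by fold, 144 with 50% coverage and 155 with gene ends of 2.5 kb. Depth per library is unknown, so a region below rank 10000 in a shallow list may still be open.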
